A study of Mus musculus with 2 samples.

Results

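The proteasome is the protease complex that removes most ubiquitin-tagged proteins from the cytosol and nucleus. Mouse genes for its parts carry symbols that join Psm, a letter from a to g and a number. In the annotation used here (GENCODE M21) 48 protein-coding genes had such a symbol, and all 48 had a row, found by gene identifier, in both gene tables. They were 48 of 21461 nuclear protein-coding genes with a row, in tables of 69691 rows. The choice rested on symbols and used no measured value.

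The tissue was whole heart of mouse embryos at 12.5 days (E12.5), of the strain B6NCrl, described as healthy, with males and females pooled and no treatment named. There were 2 libraries of total RNA, labelled biological replicates 1 and 2, each made from 10 ng of RNA longer than 200 nucleotides. They formed 1 group, so there was no contrast between conditions and no p-value, and each value below is given for both libraries or as a mean ± SD (n = 2). The labels do not say whether the replicates came from different litters, so this SD measures only the spread between these libraries. The estimated reads numbered 34751234 in replicate 1 and 31847875 in replicate 2. Levels are in TPM, the share of all transcripts corrected for transcript length and scaled to a fixed total, so that genes can be compared with each other.

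The tissue label was checked on 10 genes of heart muscle, all detected, from 15.7 TPM (Ryr2) to 9805 TPM (Actc1). Red cell genes were also abundant, with a summed level of 42984 and 38626 TPM in replicates 1 and 2. Liver genes summed to 258 and 72.1 TPM, and were lower in replicate 2 for 8 of 8 genes. A whole heart holds many cell types, and fewer cells of a type cannot be told apart from less RNA per cell.

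The working enzyme has a barrel, the 20S core, closed by a cap, the 19S regulatory particle. The core is built of outer rings of alpha subunits, which gate the channel, and inner rings of beta subunits, some of which cut the substrate. The cap has a base, with a ring of ATPases that unfold the substrate, and a lid, which takes off the ubiquitin. Immune cells, and other cells under interferon, replace the cutting subunits with the immunoproteasome forms Psmb8, Psmb9 and Psmb10. Dedicated chaperones assemble both particles and leave the finished enzyme.

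Nearly all proteasome genes were on in the E12.5 heart, and most were abundant. Detected means 1 TPM or more in both libraries: 46 of 48 proteasome genes passed, against 57.5% of all nuclear protein-coding genes. The exceptions were Psmb9, an immunoproteasome gene, and Psmb11, the form of the thymus. The median over the 48 genes was 157 ± 0.979 TPM, while the median detected protein-coding gene stood at 18.9 TPM, with quartiles of 7.15 and 45.9 TPM. Summed, the 48 genes took 0.606 ± 0.00643% of the reads on genes and 0.737 ± 0.00237% of all TPM.

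**Figure D1:**
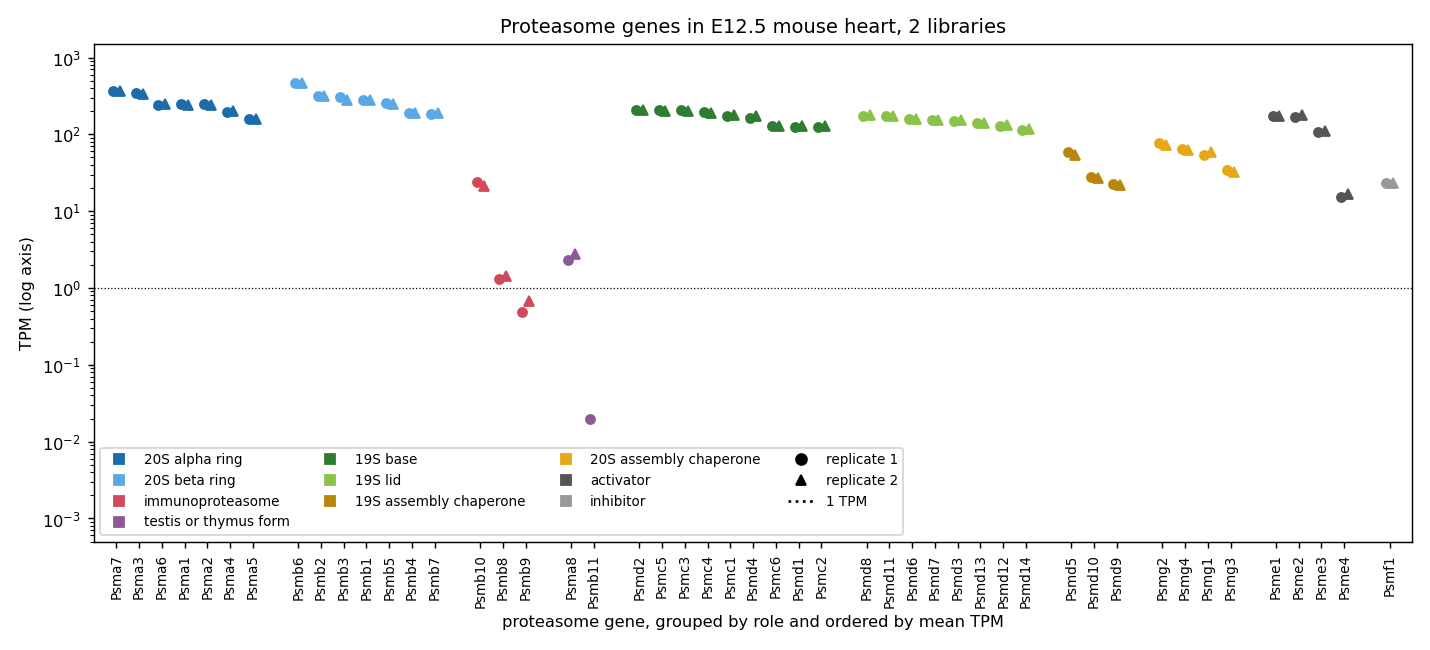
Level of each proteasome gene in TPM (log axis) in replicate 1 (circles) and replicate 2 (triangles), grouped by role and ordered by mean level within a role; the dotted line marks 1 TPM. The 31 core, base and lid genes lie between 116.64 and 469.945 TPM, assembly chaperones below them, and Psmb8, Psmb9, Psma8 and Psmb11 near or under the line; Psmb11 has 1 point because replicate 2 held no read of it.

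The 7 alpha ring genes had a median of 247 ± 4.51 TPM. Psma7 was highest, with 371.28 and 362.41 TPM in replicates 1 and 2, and Psma3, a gene for another alpha subunit, followed with 348.34 and 339.11 TPM. Psma1, Psma2 and Psma6 stood close together, with means of 247 ± 6.27, 244 ± 7.05 and 247 ± 4.81 TPM. Psma4 had 193.75 and 200.85 TPM, and Psma5 (chr3:108256926-108279974, plus strand, GRCm38) was the lowest gene of the whole core, at 158.6 and 157.12 TPM. The highest alpha gene was 2.32-fold above the lowest, and 17 of the 21 pairs of alpha genes were called apart. A pair is called apart here when replicates 1 and 2 agree on which gene is higher and the mean log2 ratio of TPM + 0.1 exceeds 3 standard errors, taken from how far genes of like abundance differ between the libraries. Of all pairs of detected protein-coding genes 92.4% were called apart by this rule, so a called pair is the common case.

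The 7 constitutive beta ring genes had a median of 278 ± 0.389 TPM, which was 1.13 ± 0.0224-fold that of the alpha ring. This direction turned without the division by length: as reads per gene the beta ring was below the alpha ring, with a log2 ratio of -0.23. Psmb6, the subunit with caspase-like activity, was the highest proteasome gene of all, with 471.59 and 468.3 TPM (chr11:70525367-70527858, plus strand, GRCm38). The other cutting subunits were lower: Psmb5, with chymotrypsin-like activity, had 256.41 and 249.57 TPM, and Psmb7, with trypsin-like activity, had 183.4 and 189.82 TPM. By mean level the 3 subunits that cut spanned 2.52-fold, the same span as the whole beta ring, since Psmb6 and Psmb7 were its highest and lowest genes. In replicate 2 the lowest was Psmb4, which had 190.31 and 187.07 TPM in replicates 1 and 2. Among the beta subunits that do not cut, Psmb2 had 314 ± 1.10 TPM, Psmb3 292 ± 19.4 TPM, Psmb1 278 ± 0.389 TPM and Psmb4 189 ± 2.29 TPM. Psmb3 had the largest SD of the core, with 306.02 TPM in replicate 1 and 278.6 TPM in replicate 2.

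The promoters of Psmb5 and Psmb6 are shown because both hold TGACNNNGC, the core letters of an antioxidant response element. Such elements are bound by the factor Nfe2l1 (Nrf1), a known activator of proteasome genes. These letters were in 15% of the 40 proteasome genes with a promoter sequence. They were in 14.0% of all genes with a promoter sequence and in 17.4% of such genes at 10 TPM or more. The match therefore does not set proteasome genes apart, and it says nothing on binding. Capitals mark the match. The Psmb5 stretch (chr14:54618023-54618067, minus strand) has its match from position -47, and the Psmb6 stretch (chr11:70525323-70525356, plus strand) from -9; both come from RefSeq, build GRCm38.p6. Positions here and below count from the gene start of RefSeq, which can differ from the start in GENCODE, as it does for Psmb5 and Psmb6.
Psmb5: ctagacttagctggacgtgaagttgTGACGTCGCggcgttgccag
Psmb6: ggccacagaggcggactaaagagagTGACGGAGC

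The 9 genes of the 19S base were lower and closer together than the core, with a median of 176 ± 5.19 TPM. Psmd2, a large scaffold subunit, was highest with 207.8 and 204.46 TPM. Psmd1, the other large scaffold subunit, had 125.86 and 129.35 TPM, and Psmd2 was 1.62-fold higher. Psmd4, a receptor for ubiquitin chains, had 162.32 and 173.97 TPM. Of the 6 ATPases, Psmc5, Psmc3 and Psmc4 formed an upper set with 204 ± 4.08, 203 ± 4.14 and 193 ± 0.891 TPM. Psmc6 (128.76 and 126.66 TPM) and Psmc2 (123.55 and 127.99 TPM) formed a lower set, and Psmc1 lay between with 176 ± 5.19 TPM.

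The ATPases sit in the ring as pairs, and the pair members did not all match in level. Psmc1 was 1.40 ± 0.00631-fold above Psmc2, with 172.45 and 179.79 against 123.55 and 127.99 TPM. Psmc3 was 1.59 ± 0.0139-fold above Psmc6, with 206.16 and 200.3 against 128.76 and 126.66 TPM. Psmc4 and Psmc5 were not called apart, with a ratio of 0.946 ± 0.0146 and a log2 ratio of -0.08 whose standard error was 0.04. Both libraries had Psmc5 on top, by 1.06-fold on average.

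The 8 lid genes had a median of 154 ± 2.13 TPM and, over all transcripts of a gene, the narrowest range of the core, base and lid. Psmd8 was highest with 174.2 and 177.22 TPM, followed by Psmd11 with 172.37 and 171.6 TPM. Psmd6, Psmd7 and Psmd3 had 157 ± 0.912, 155 ± 1.34 and 153 ± 2.92 TPM, and Psmd13 and Psmd12 had 139 ± 0.368 and 129 ± 1.65 TPM. Psmd14, the subunit that cuts ubiquitin from the substrate, was lowest with 115.28 and 118 TPM. On transcripts annotated as protein coding alone, Psmd13 was lowest, with 63.6 ± 6.19 TPM against 99.9 ± 0.0141 TPM for Psmd14. Here and below, transcripts absent from GENCODE M21, of unknown type, were not counted as coding. They held 14.9 ± 0.900% of the TPM of Psmd13. Psmd7, the inactive partner of Psmd14 in the same dimer, was 1.33 ± 0.0104-fold higher, and the pair was called apart.

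Promoters of 5 base and lid genes are shown next. CCGGAAG, a core site of the ETS family of transcription factors, was in 9 of the 14 base and lid genes with a promoter sequence. It was in 1 of the 11 such core genes, in 9.93% of all genes with a promoter sequence and in 23.5% of the 6680 at 10 TPM or more. Psmb1, Psmb2 and Psmb7 of the core, and Psmc3, Psmd3 and Psmd7 of the cap, had no promoter sequence. The motif was chosen after the levels were known, and the difference was not tested. Capitals mark the site, which in Psmd2 and Psmd11 lies on the other strand and so reads CTTCCGG. The stretches come from RefSeq (GRCm38.p6) at chr14:45329699-45329755 (Psmc6, plus strand), chr16:20651601-20651651 (Psmd2, plus), chr3:95042708-95042764 (Psmd4, minus) and chr11:80428579-80428614 (Psmd11, plus). The Psmd12 stretch (chr11:107479278-107479314, plus) shows the other element, the antioxidant response core, on the other strand.
Psmc6: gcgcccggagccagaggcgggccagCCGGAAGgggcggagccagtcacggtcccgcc
Psmd2: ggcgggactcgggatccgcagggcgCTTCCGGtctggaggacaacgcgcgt
Psmd4: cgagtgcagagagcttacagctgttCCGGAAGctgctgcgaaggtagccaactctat
Psmd11: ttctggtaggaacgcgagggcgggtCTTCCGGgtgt
Psmd12: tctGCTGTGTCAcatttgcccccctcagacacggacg

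Core genes as a set stood above cap genes. The median of the core, 250 ± 2.78 TPM, was 1.43 ± 0.0580-fold that of the base and 1.64 ± 0.0408-fold that of the lid, in the same direction in both libraries. Of the 14 core genes 13 were above the highest lid gene (Psmd8, 176 TPM) and 10 were above the highest base gene (Psmd2, 206 TPM). Of the lid genes 6 of 8, and of the base genes 3 of 9, were below Psma5, the lowest core gene. On coding transcripts alone, 10 of 14 core genes were above the highest lid gene and 9 above the highest base gene, and 1 of 8 lid genes and none of 9 base genes were below the lowest core gene, which was then Psmb4.

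Core transcripts were also shorter, with a median effective length of 891 bases against 1419 in the base and 1301 in the lid. Taken as reads per gene, without division by length, the base stood above the core by 0.17 on the log2 scale and the lid was at -0.03. Across the 31 core, base and lid genes the Pearson correlation of log2 length with log2 TPM was -0.69 and the Spearman correlation -0.76, over genes of the same libraries that share an estimate of length. Within the core alone (14 genes) the Pearson value was -0.61, and within base and lid (17 genes) -0.14. The part of length in the difference of core and cap was not tested.

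Over all transcripts of a gene, the spread within the base and within the lid was under 2-fold. The highest gene was 2.98-fold above the lowest in the core, 1.64-fold in the base and 1.51-fold in the lid, and 4.03-fold over the 31 genes together. No pair within the base (36 pairs) or the lid (28 pairs) reached 2-fold, and 6 of the 91 core pairs did. On coding transcripts alone the base stayed at 1.61-fold, but the lid spanned 2.76-fold (6 of 28 pairs past 2-fold), the core 4.60-fold (20 of 91 pairs) and the 31 genes 6.77-fold. The lowest genes were then Psmd13 in the lid and Psmb4 in the core, whose transcripts are described further on. The coding value of Psmd13 leaves out its transcripts of unknown type. Over all transcripts 79 core pairs, 26 base pairs and 22 lid pairs were called apart, which is 86.8%, 72.2% and 78.6% of them, each below the 92.4% of all pairs of detected genes.

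Other large complexes give a rough scale for this. The genes of complex I and the ribosomal protein genes were taken by symbol pattern, related forms included. The core, base and lid lists were set by role, with tissue forms kept apart. The part of list composition in the spread was not tested. The SD of log2 TPM among detected genes was 0.43 in the core, 0.31 in the base and 0.20 in the lid, 0.50 over these 31 genes together and 1.71 over the 46 detected proteasome genes. On coding transcripts alone the values were 0.59 in the core, 0.29 in the base, 0.49 in the lid and 0.58 over the 31 genes. Over all transcripts it was 0.51 for the 7 genes measured of the chaperonin CCT, which folds actin and tubulin, 0.81 for 36 genes of respiratory complex I, 0.99 for the 77 detected ribosomal protein genes and 2.01 for all detected protein-coding genes. The median CCT gene, at 277 TPM, was near the median of the beta ring, while the medians of complex I and of the ribosomal protein genes were 382 and 464 TPM.

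**Figure D2:**
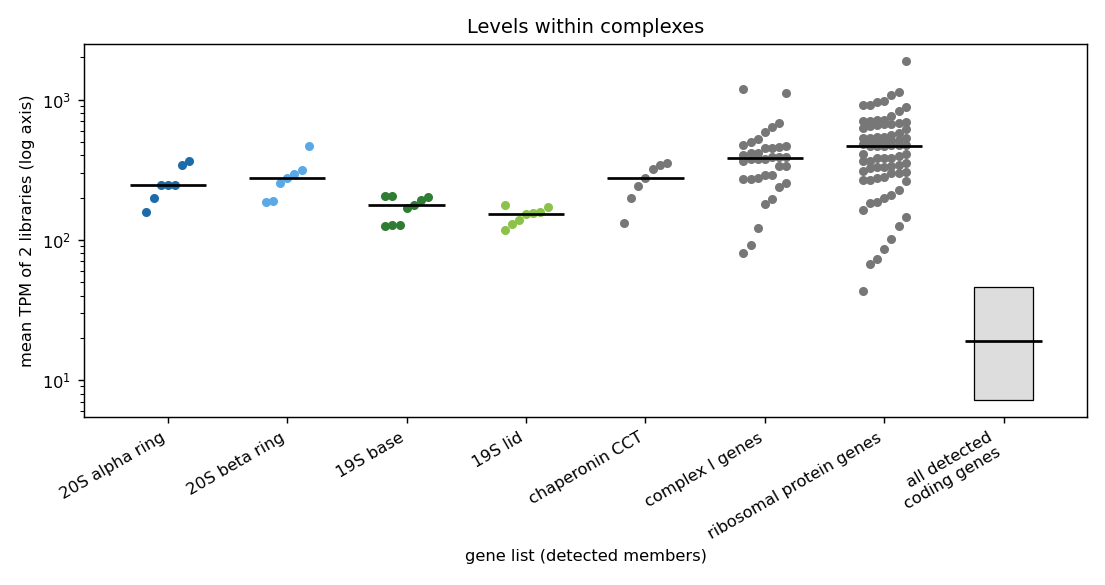
Mean level of 2 libraries in TPM (log axis) for each detected gene of 7 lists; bars mark medians, and the box at the right spans the quartiles of all detected protein-coding genes (7.15 to 45.9 TPM). Over all transcripts of a gene, base and lid genes lie within 1.64-fold and 1.51-fold, and complex I genes within 14.8-fold. Complex I and ribosomal protein genes were taken by symbol pattern.

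Of the immunoproteasome genes, Psmb8 and Psmb9 were close to the limit of detection and Psmb10 was not. Psmb8 had 1.29 and 1.43 TPM, from 34 and 27 estimated reads, and Psmb9 had 0.48 and 0.67 TPM, from 14 and 15.7 reads. With so few reads the exact 95% Poisson intervals of the read numbers were 23.5 to 47.5 and 17.8 to 39.3 for Psmb8, and 7.65 to 23.5 and 8.90 to 25.6 for Psmb9, and these cover counting error only. Psmb10 (chr8:105935735-105938444, minus strand, GRCm38) stood apart with 24.07 and 21.11 TPM, from 666 and 528 reads. It was at the percentile 55.4 of detected protein-coding genes, whereas Psmb8 was at 1.76.

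Each immunoproteasome gene was set against the constitutive gene whose place it takes. Psmb5 was 199-fold above Psmb8 in replicate 1 and 175-fold in replicate 2. Psmb6 was 982-fold and 699-fold above Psmb9. Psmb7 was 7.62-fold and 8.99-fold above Psmb10. The median of the cutting genes was 187 ± 17.1-fold that of the immunoproteasome genes, which with 3 genes in each list is the ratio of Psmb5 to Psmb8. Every constitutive gene lay above its counterpart in both libraries, and the 3 pairs were called apart.

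**Figure D3:**
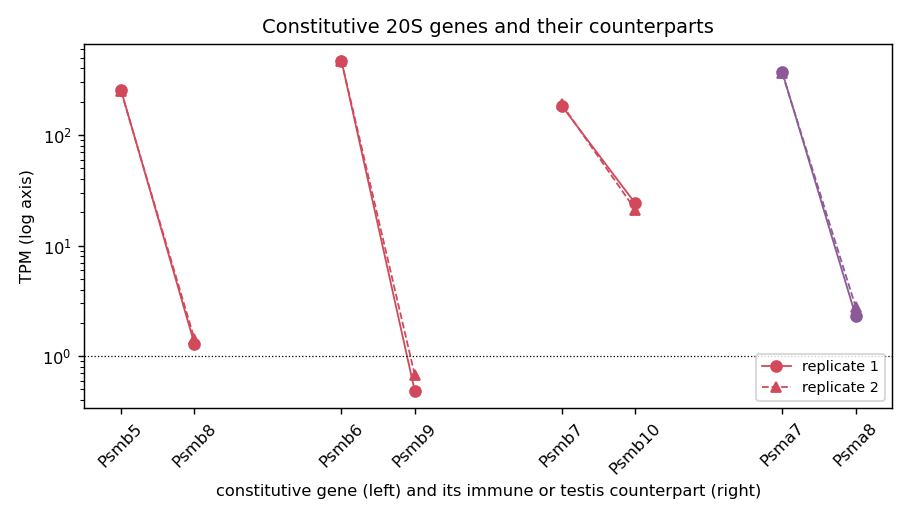
Level in TPM (log axis) of 4 constitutive core genes (left point of each line) and their immune or testis counterparts (right point) in replicate 1 (circles, solid lines) and replicate 2 (triangles, dashed lines); the dotted line marks 1 TPM. The drop is 7.62-fold and 8.99-fold for Psmb10, and over 100-fold for Psmb8, Psmb9 and Psma8.

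The other tissue forms were low as well. Psma8, which replaces Psma7 in the testis, had 2.31 and 2.79 TPM, from 87 and 95 reads, and Psma7 was 161-fold and 130-fold above it. Psmb11, the thymus form of Psmb5, had 2 reads in replicate 1 and 0 in replicate 2; 3 reads would be 0.0306 and 0.0339 TPM for a gene of its length. Both values are under this floor, so no fold is given. The defining genes of other tissues were near 0: of 5 germ cell markers none was detected (Stra8 and Tex101 at 0, Ddx4 highest at 1.08 TPM), and of 6 thymus and T cell markers only Ccl25 was, with 5.18 TPM (Foxn1 and Cd3e at 0).

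Genes of immune cells were present at a low level. Of 10 leukocyte markers 9 were detected, against 57.5% of all nuclear protein-coding genes. The summed level of the markers was 81.1 and 78.2 TPM in replicates 1 and 2. The median was 7.82 TPM, and the pan-leukocyte gene Ptprc had only 0.68 and 1.00 TPM. The part of leukocytes in the levels of Psmb8, Psmb9 and Psmb10 was not tested.

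The partners of the immunoproteasome in antigen presentation were split in level. Of 12 genes of class I presentation and the interferon response 10 were detected, against 57.5% of all nuclear protein-coding genes. General chaperones of the endoplasmic reticulum led, Calr with 617 TPM and Pdia3 with 523 TPM, followed by B2m, the light chain of class I molecules, with 201 TPM. Tapbp, which loads peptides, had 26.3 TPM and the class I gene H2-D1 had 25.8 TPM. The peptide transporter gene Tap1 had 0.94 and 0.90 TPM, and Nlrc5, the activator of class I genes, had 0.08 and 0.16 TPM. Psmb9 (chr17:34181987-34187764, minus strand), Tap1 (chr17:34187553-34197225, plus) and Psmb8 (chr17:34197721-34201454, plus) stand next to each other, with 9956 bases between Psmb9 and Psmb8, and all 3 were near or under 1 TPM.

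The activators were unequal. They bind the ends of the core in place of the cap. PA28 alpha and beta (Psme1 and Psme2), which form 1 ring together, had nearly the same level over all transcripts. Psme1 had 173.66 and 172.19 TPM and Psme2 166.62 and 175.97 TPM. Their ratio was 1.01 ± 0.0451 and its sign differed between the libraries, so the pair was not called apart. Both genes are known to be induced by interferon, like those of the immunoproteasome, and here their levels lay within the range of the base genes. Psme3 (PA28 gamma), the nuclear activator, had 106.92 and 110.3 TPM, and Psme4 (PA200) had 15.49 and 16.67 TPM. Psme3 was 6.76 ± 0.202-fold above Psme4. Psmf1, an inhibitor that binds the core, had 23.28 and 23.14 TPM.

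The Psme3 promoter is printed because it is among the 2 activator promoters of 4 that hold the ETS site. It comes from chr11:101316081-101316137 on the plus strand (GRCm38.p6), with the site from position -107.
Psme3: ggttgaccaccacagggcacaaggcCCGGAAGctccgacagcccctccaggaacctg

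Assembly chaperones with a Psm symbol were less abundant than the parts they assemble. The 4 such chaperones of the core had a median of 60.0 ± 1.28 TPM, and the core median was 4.20 ± 0.136-fold higher. Psmg2 had 76.27 and 73.35 TPM, and its dimer partner Psmg1 had 53.75 and 59.23 TPM, 1.33-fold lower. Psmg4 had 64.47 and 62.61 TPM, and its partner Psmg3 had 34.69 and 31.86 TPM, 1.91-fold lower. Both dimers were called apart. Pomp, a factor needed for maturation of the core that carries no Psm symbol, was higher than all 4, with 240.54 and 251.28 TPM. Its level was near the core median of 250 ± 2.78 TPM.

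The 3 chaperones of the 19S base had a median of 27.7 ± 0.799 TPM, and the base median was 6.37 ± 0.371-fold higher. Psmd5 had 58.69 and 54.37 TPM, Psmd10 (gankyrin) 28.25 and 27.12 TPM, and Psmd9 22.38 and 22 TPM. The lowest core, base or lid gene (Psmd14, 117 ± 1.92 TPM) was above the highest of the 7 chaperones with a Psm symbol (Psmg2, 74.8 ± 2.06 TPM). On coding transcripts alone this order did not hold for Psmd13, which had 63.6 TPM, below Psmg2 at 74.8 TPM. The value of Psmd13 leaves out its transcripts of unknown type, with 14.9 ± 0.900% of its TPM, so this order is uncertain.

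The Psmg1 promoter (chr16:95990998-95991054, minus strand, GRCm38.p6) and the Psmd9 promoter (chr5:123228134-123228189, plus) are printed as chaperone genes of the core and of the base, the first with the ETS site from -69 and the second with the antioxidant response core from -31.
Psmg1: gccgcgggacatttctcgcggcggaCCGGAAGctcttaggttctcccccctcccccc
Psmd9: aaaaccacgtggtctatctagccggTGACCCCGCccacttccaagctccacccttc

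Every measured gene of a list that works with the proteasome was on. Of 26 further genes of the proteasome and ubiquitin system 25 had a row, and their median was 85.0 TPM. All 25 of 25 were detected, against 57.5% of all nuclear protein-coding genes. Ubb, which encodes ubiquitin, had 2118 TPM, and Rps27a, which encodes ubiquitin joined to a ribosomal protein, had 562 TPM. Vcp, the unfoldase that hands substrates to the proteasome, had 469 TPM. Named after their values were seen, the remaining subunits without a Psm symbol were Sem1 and Adrm1. Sem1 of the lid had 168.99 and 167.67 TPM, within the range of the lid genes. Adrm1, a ubiquitin receptor of the base, had 122.19 and 125.19 TPM. Its mean of 123.7 TPM was just below the lowest base gene, Psmc2, with 125.8 TPM. Nfe2l1, likewise named after its value was seen, had 70.31 and 72.63 TPM.

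Of the 14 pairs set up among the 48 genes, 12 were called apart; 2 of the 14 hold a gene under 1 TPM (Psmb9 or Psmb11). The pairs not called were Psme1 with Psme2 and Psmc4 with Psmc5. Since 92.4% of all pairs of detected genes were called, the count of 12 says little about proteasome genes in particular.

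The replicates gave almost the same level for every proteasome gene with enough reads. Of the 46 genes with a mean of 20 reads or more none differed over 1.5-fold between the libraries, where 3.57% of all protein-coding genes with such reads did. None differed over 1.2-fold either, against 14.3%. All these folds are ratios of TPM + 0.1. Without the added 0.1, Psma8, with 2.31 and 2.79 TPM, was just past 1.2-fold. The median size of the difference was 0.04 on the log2 scale, against 0.08 for all such genes, which include many of lower abundance. On TPM + 0.1, Psma8 differed most, by 1.199-fold, and Psmb9, which had under 20 reads, by 1.33-fold. In replicate 2, 25 genes were lower and 21 higher, with no common direction, while the liver genes were lower in 8 of 8.

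**Figure D4:**
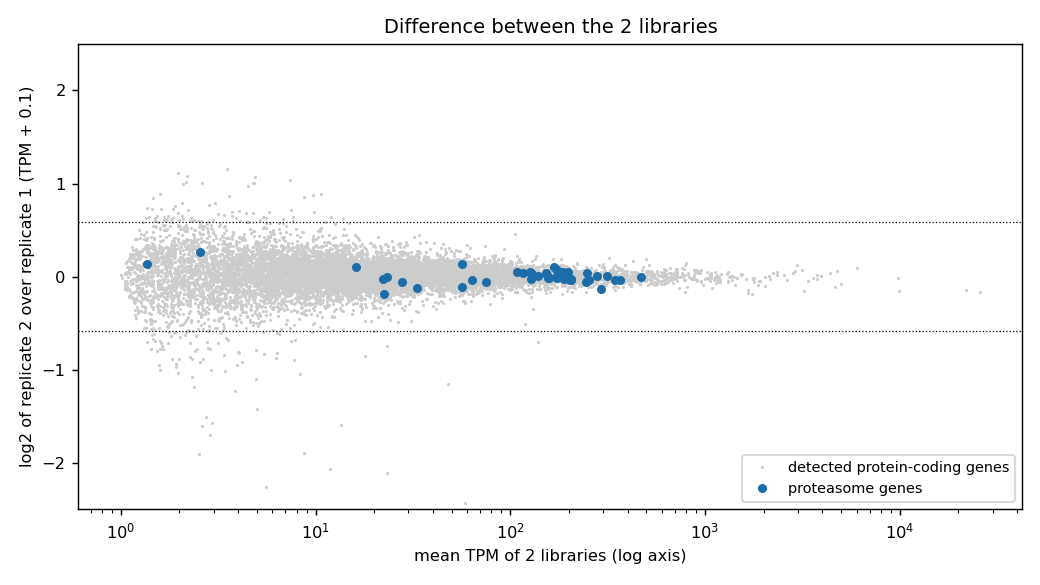
Log2 ratio of replicate 2 over replicate 1 (TPM + 0.1) against mean TPM (log axis) for detected protein-coding genes (grey) and proteasome genes (blue); dotted lines mark 1.5-fold, and 2 grey points lie outside the axis. All 46 detected proteasome genes lie between the lines, the widest being Psma8 with 1.199-fold.

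At the level of transcripts, most proteasome genes used 1 form. Among the 44 genes at 10 TPM or more, the leading transcript held a median of 95.7% of the gene's TPM, and in 27 genes it held 90% or more. Of 27 genes with at least 2 transcripts at 1% or more, 26 had the same leading transcript in both libraries, which is near the background of 94.2% for all such genes. The median gene had 97.5% of its TPM on transcripts annotated as protein coding, but 4 genes had under 80%.

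Psma3 was the most divided gene. Its coding transcripts held 36.5% and 42.3% of its TPM in replicates 1 and 2. Transcripts with a retained intron held 33.9 ± 2.20%, and those annotated for nonsense-mediated decay, which degrades messages with an early stop, held 26.7 ± 1.87%. Its leading transcript differed between the libraries: Psma3-203, with a retained intron, had 33.3% and 29.7%, and the coding Psma3-204 had 28.5% and 34.3%. By reads, which weigh long transcripts more, the coding share of Psma3 was 46.9 ± 3.39%. On coding transcripts alone Psma3 had 127.14 and 143.3 TPM, below Psma5.

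Psmb4, Psmd13 and Psme2 were divided as well. Psmb4 had 49.8% and 49.4% of its TPM on its coding transcript, and the rest on transcripts with a retained intron; the coding share was 66.7 ± 0.498% by reads. Psmd13 had a leading coding transcript, Psmd13-201, with 43.6% and 38.6%, and a transcript annotated for nonsense-mediated decay, Psmd13-211, with 28.4% and 33.1%. A further 14.9 ± 0.900% of its TPM was on transcripts absent from GENCODE M21, so their type is not known here. By reads Psmd13 was 67.3 ± 3.96% coding. Psme2 had 2 coding transcripts, Psme2-208 with 37.2 ± 0.352% and Psme2-201 with 34.3 ± 2.94%, and a retained intron transcript of 86 bases effective length, Psme2-203, with 23.4 ± 0.128%. On so short a transcript few reads give a high TPM: by reads Psme2 was 92.8 ± 1.73% coding.

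**Figure D5:**
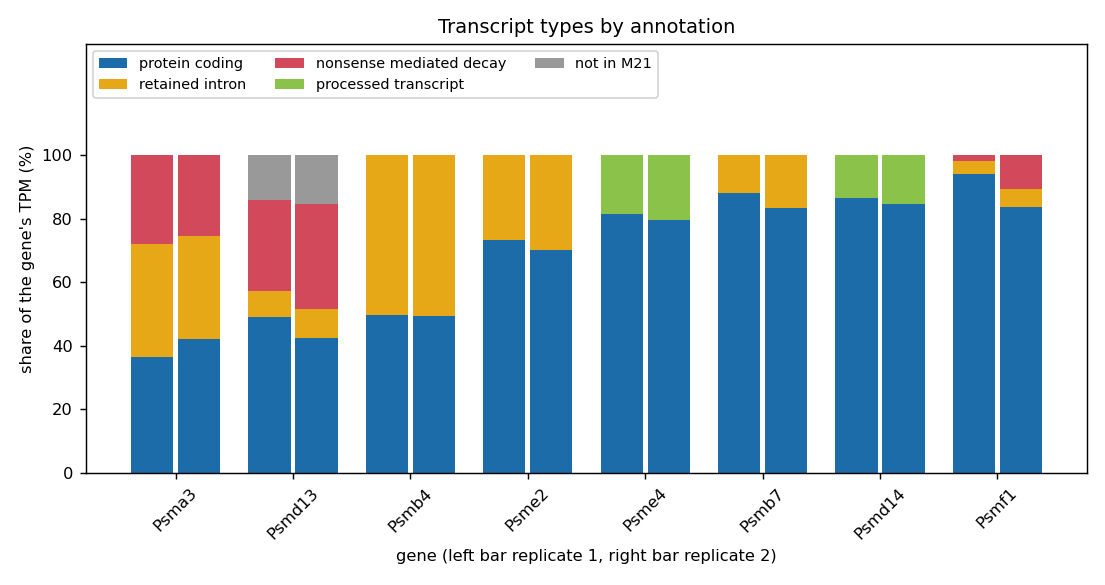
Share of the gene's TPM (%) by annotated transcript type for the 8 proteasome genes at 10 TPM or more with the lowest coding share; the left bar of each gene is replicate 1 and the right bar replicate 2. Psma3, Psmd13 and Psmb4 have less coding than other TPM on average, Psme2 has 71.7% coding on average, and Psmf1 differs most between its bars in the share annotated for nonsense-mediated decay.

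On coding transcripts alone, Psme1 had 157 ± 1.26 TPM and Psme2 123 ± 0.792 TPM, so the near-equal levels of these partners depend on the transcripts counted. Psmb4 had 93.6 ± 1.63 TPM and Psmd13 63.6 ± 6.19 TPM on coding transcripts. Several genes divided their coding output between 2 forms. Psmd4-202 and Psmd4-201 held 51.5 ± 0.736% and 40.5 ± 0.185% of Psmd4, and Psmd11-214 and Psmd11-205 held 58.6 ± 0.0357% and 28.6 ± 1.98% of Psmd11. Psmg4-202 and Psmg4-201 held 68.0 ± 2.43% and 32.0 ± 2.43% of Psmg4.

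Proteasome genes have many processed copies in the mouse genome, and such copies can take or give reads. A search found 21 copies of 14 genes with at least 90% identity over 200 bases. Together they held 0.680 ± 0.0505% of the reads of these genes and copies, and 7 of the 21 had no reads. The only copy with 100 reads or more was Gm13835, a processed pseudogene of Psma3 (chr6:31141979-31142663, minus strand, GRCm38), identical to it over all 685 aligned bases (100% identity). It had 1221 and 943 estimated reads, or 12.5% of the reads of Psma3 and its copies. As the sequences are identical there, the division of reads between Psma3 and Gm13835 is uncertain. No other gene had over 5% of its reads on copies, and Psmd11 was next with 1.27%.

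Overlapping genes are a further limit, since the sources used here do not say that counting used strand. In 13 proteasome genes an exon overlaps an exon of another gene, and in 11 of them one on the opposite strand. By reads over the whole overlapping gene, Psmb7 came first, where Nek6 had 2602 and 2329 reads (253 shared bases). Next were Psmc3, where Slc39a13 had 1423 and 1381 reads (147 bases), and Psmd13, where Sirt3 had 777 and 713 reads (329 bases). Reads within the shared bases were not counted. Psmb9 overlaps Tap1 by 212 bases, and Tap1 had 62 and 54.3 reads against 14 and 15.7 of Psmb9. The part of such overlaps in the levels was not tested.

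The genes are spread over the genome. The 48 lie on 16 chromosomes, with 8 on chromosome 11, and few are neighbours. Psmb5 and Psmb11 stand 3410 bases apart on chromosome 14 in opposite directions; Psmb5 had 253 ± 4.84 TPM and Psmb11 was under its floor. Psme1 and Psme2 stand 5911 bases apart on chromosome 14, pointing at each other. They had nearly the same level over all transcripts, but 157 ± 1.26 and 123 ± 0.792 TPM on coding transcripts alone.

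Short motifs were counted in promoter windows of 300 bases, from 250 before to 50 after the start, on both strands; 40 of the 48 genes had a window in RefSeq (GRCm38.p6). A match describes letters only and says nothing on binding, and the motifs were chosen after the levels were known. A gene was counted when any of its windows held the letters. The ETS site CCGGAAG was in 14 of 40 genes (35%). It was in 9.93% of all 27025 genes with a window and in 23.5% of the 6680 at 10 TPM or more. It was in 5 of 8 base genes, 4 of 6 lid genes, 2 of 3 core chaperones and 2 of 4 activators, in 1 of 7 alpha ring genes (Psma6) and in none of 4 beta ring genes. The stretches printed above for Psmc6, Psmd2, Psmd4, Psmd11, Psme3 and Psmg1 show 6 of these sites.

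The antioxidant response core TGACNNNGC was about as frequent as in other promoters. It was in 6 of 40 genes (15%), against 14.0% of all genes with a window and 17.4% of those at 10 TPM or more. The 6 were Psmb5, Psmb6, Psmc6, Psmd12, Psmd9 and Psme4, and their median level was 128 TPM, with a range from 16.1 to 470 TPM. The 31 genes at 10 TPM or more without it had a median of 171 TPM. The highest proteasome gene (Psmb6) and the lowest activator (Psme4) thus both held these letters.

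The GC box GGGCGG was in 57.5% of the proteasome genes, between its share of all genes with a window (38.2%) and of those at 10 TPM or more (72.3%). CCAAT was in 35%, against 41.1% of all genes and 44.0% of genes at 10 TPM or more. TATAAA was in 10%, against 15.7% and 8.34%. No difference in motif shares was tested. The interferon response core (GAAA, any 2 bases, GAAA) was in 5 of 40 genes (12.5%: Psmb3, Psmd4, Psmd9, Psme1 and Psmg4). It was in 3.99% of all genes with a window and 3.22% of those at 10 TPM or more. None of the 3 immunoproteasome genes held it in this window. Matches of different motifs shared bases in 2 genes, Psmd9 and Psme4.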

How the data were processed

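Total RNA of 2 E12.5 heart libraries was analysed from the quantification tables. Per the file headers and deposited notes, reads were assigned to mm10 with the GENCODE M4 annotation. The sources used here name no aligner or quantifier and say nothing of ribosomal RNA removal or strand; the labels' protocols cite a low-input cDNA kit. The deposited expected counts are estimated reads per gene, with shared reads divided. The deposited TPM values, and their posterior means and bounds, are length-scaled shares. The deposited FPKM values scale by length and library size. The deposited percent values give each transcript's share in its gene, and the deposited files also hold effective lengths and posterior SDs.

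Names, types and coordinates came from GENCODE M21 (GRCm38), matched by gene ID: 42462 of 43346 Ensembl rows matched. The genes, lists, pairs and alternatives were chosen with earlier results of these data known. Every proteasome gene is named. Of the other lists, the 6 highest and any under 1 TPM are named, and of the copies those with 100 reads or more; some genes of these lists are not reported here. Thresholds were 1 TPM in both libraries for detection, a pseudocount of 0.1 TPM and 3 standard errors from 20 abundance bins for pairs, and a mean of 20 reads for differences between libraries. The pseudocount was also added for differences between libraries. Ratios on the log2(TPM + 0.1) scale understate differences of low genes. Medians of lists were compared within each library, with a direction called where both gave it. Copies were found with blastn 2.17.0. Scaling alternatives used edgeR 4.0.16 and DESeq2 1.42.0 in R 4.3.3. All else ran in Python 3.11.15 with pandas 2.3.3, numpy 2.4.6, matplotlib 3.10.9 and scipy 1.17.1. The pair rule and the fold rule were tested on simulated data. A floor of 3 reads corresponds to 0.0896 and 0.0978 CPM. No test between conditions was made, since there was 1 group.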

Additional observations from a re-analysis of the deposited data

How the results depend on the processing

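Levels of genes were compared per length. Reads per gene, not divided by length, turned the direction for the beta over the alpha ring (log2 ratio -0.23) and for the base over the core (0.17). The same reads gave -0.034 for the lid over the core, -7.18 for immunoproteasome over cutting genes, -0.68 for activators over the core, -2.46 for core chaperones over the core and -2.16 for base chaperones over the base; dividing by length is the only step that differs. Geometric means in place of medians gave, in the same order, 0.12, -0.64, -0.81, -6.65, -1.61, -2.24 and -2.35, all in the direction of the medians (0.18, -0.52, -0.71, -7.54, -0.86, -2.07 and -2.67); the cause was not tested. Protein-coding transcripts alone, an alternative chosen after seeing the data, gave 0.21 for the beta over the alpha ring and -1.14 for activators over the core, and kept the other 5 ratios within the spread between libraries. On them the highest gene was 4.60-fold above the lowest in the core (2.98 over all transcripts) and 2.76-fold in the lid (1.51). It was 6.77-fold above the lowest over core, base and lid (4.03), against 1.61-fold in the base (1.64). Transcripts of Psmd13 absent from GENCODE M21 were not counted as coding. The counts of detected genes (44 to 46), called pairs (12), genes past 1.5-fold between libraries (0) and genes with the same leading transcript (19 of 20 to 27 of 28) stayed within 1.5 times under every alternative run, TMM and DESeq2 scaling included. No paired analysis was possible because there is 1 group and no contrast. Depth limits Psmb8, Psmb9 and Psmb11, with 34 reads or fewer in each library.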
